A study of Caenorhabditis elegans with 4 samples.

Results

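The irg (infection response gene) and pals (protein containing ALS2CR12 signature) genes of Caenorhabditis elegans were followed in wild-type larvae of the fourth and final stage, L4. Members were the probes whose platform annotation names exactly 1 gene with an irg or pals symbol followed by a number. The rule found 32 probes for 31 genes, 8 irg and 23 pals, of 14901 named genes with values on at least 3 arrays. All 31 genes met that minimum, 28 with a value on all 4 arrays and 3 (pals-31, pals-32 and pals-38) with 3 values. A current annotation (WBcel235) lists 8 irg and 39 pals genes, and the other 16 pals genes, among them pals-25, were not analysed here. Genes entered by symbol, but the families themselves were selected on the log2 ratios of these same 4 arrays, so the members' values are given as a description and support nothing.

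Each of the 4 two-channel arrays held 1 preparation of wild-type L4 RNA in channel 2 and wild-type mixed reference RNA in channel 1, per the labels. The sources used here do not give the strain, culture conditions, dyes or composition of the reference, and neither RNA carries a named allele or agent. A value is a log2 ratio of L4 over the reference, centred on the median of its array. The direction of the deposited ratio is not stated. It is likely L4 over reference, since the labels set L4 in channel 2 against the reference, and "higher" and "lower" carry that limit throughout. A ratio is not a level: no spot brightness was available, so a ratio near 0 can come from a gene well expressed in both RNAs or from a gene near background in both. The number of arrays limits the precision. The labels name no separate cultures, so p-values measure only the spread between these preparations, which may be technical.

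The families stand for different arms of worm defence. Several irg genes are induced in the intestine by the bacterium Pseudomonas aeruginosa, some through the p38 MAP kinase PMK-1 and its transcription factor ATF-7, and others through the bZIP factor ZIP-2, which responds when translation is disturbed. Many pals genes belong to the intracellular pathogen response, a programme induced by microsporidia and the Orsay virus and held down by pals-22. The pals name rests on a shared protein signature, whereas the irg name rests on behaviour in infection and covers unlike proteins. No infection or other challenge is named in the labels, so the ratios describe these genes in worms not labelled as challenged.

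The 4 arrays carried values for 21084 to 21489 of 21632 probes, and the correlation of their log2 ratios over probes was between 0.5557 and 0.7240. Sperm and yolk markers mostly went with the L4 label, by amounts that differed between preparations. All 4 sperm genes on the list were higher, with medians of 3.75, 3.94, 2.33 and 1.25 in preparations 1 to 4. Of 3 yolk genes, 2 were lower and 0 higher, with medians of -2.22, -0.73, -3.33 and -5.28, and both calls were lost without preparation 3. By tissue, 4 of 7 intestinal, 2 of 3 muscle and 1 of 6 epidermal markers were higher, and 0, 0 and 1 were lower. Of 4 neuronal markers, 0 were higher and 2 lower, and of 3 early embryonic markers, 0 were higher or lower. Over all probes and genes tested, 11.9% were higher and 9.77% lower. Some epidermal markers also differed between preparations. In preparations 1 to 4, col-19 was at 2.47, 2.27, 1.08 and -2.65, and dpy-7 at -0.19, -2.17, -0.78 and 1.92. Whether the preparations differed in stage was not tested. In whole worms, fewer cells of a type and less RNA per cell cannot be told apart.

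The irg genes split into a group far above the reference and a group below it. On every array, irg-4, irg-5, irg-7 and irg-8 were above 0 and over the 90th percentile of all named genes, which was between 1.06 and 1.58. In contrast, irg-1, irg-2 and irg-3 were below 0 on every array, and irg-6 had values on both sides of 0. The lowest value among the 4 high genes was 2.24, and the highest among the other 4 was 0.33. These groups were formed from the same values, so the gap between them is a description and supports nothing.

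**Figure D1:**
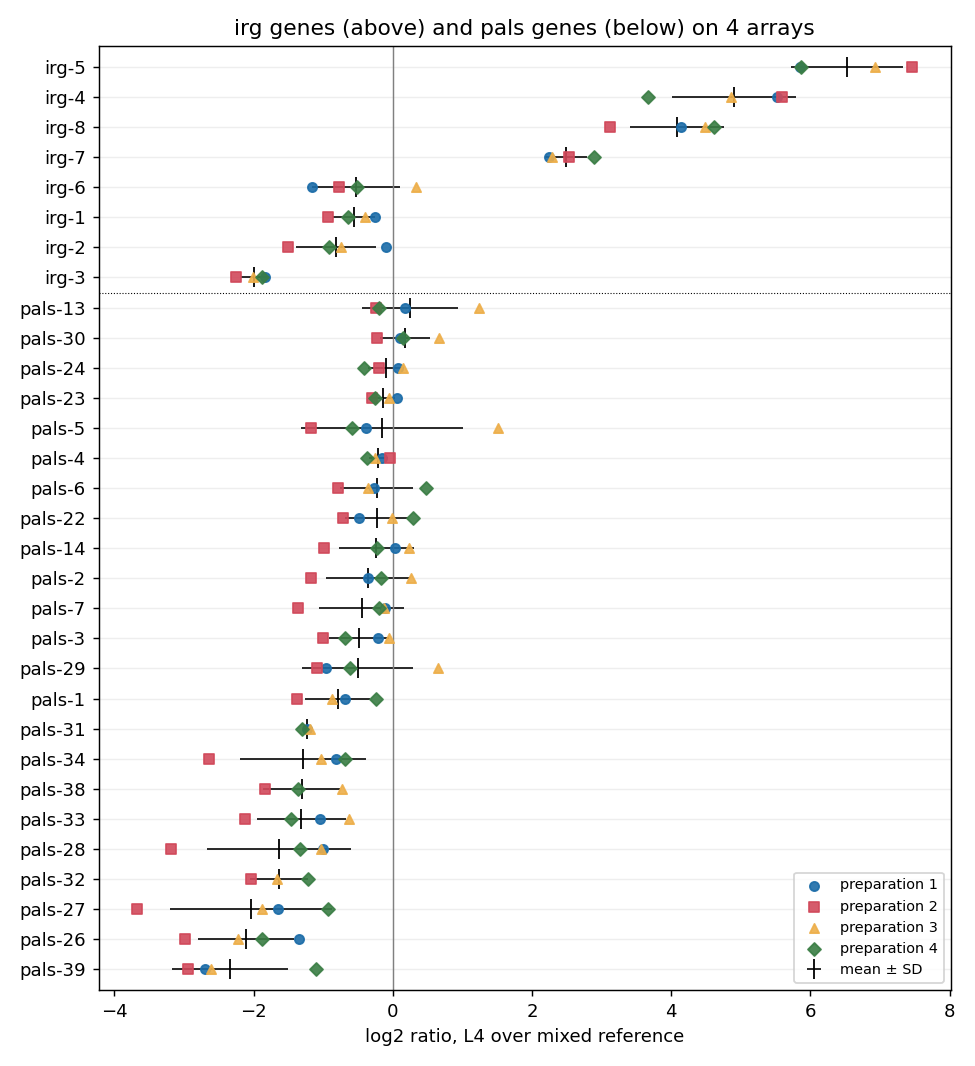
Log2 ratio of L4 over the mixed reference for each irg gene (8, above the dotted line) and each pals gene (23, below it), sorted by mean. Coloured symbols are the 4 preparations, and the black tick and bar are mean ± SD over the arrays with a value (n = 4, or n = 3 for pals-31, pals-32 and pals-38). The 4 high irg genes lie at 2.24 or above on each array, and the lowest pals means are those of pals-39, pals-26 and pals-27.

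The highest ratio of all 14901 named genes belonged to irg-5 (sequence name F35E12.5), a target of the p38 cascade that encodes a protein with a CUB-like domain. Its log2 ratios were 5.85, 7.46, 6.92 and 5.87 in preparations 1 to 4. Preparations 1 and 4 were alike and preparation 2 was highest, and even the lowest of the 4 exceeded every other member's highest value. Its mean was 6.53 ± 0.80 (SD, n = 4), which is 92.1-fold. Were the deposited ratio the other way round, each fold would be inverted and each rank would count from the bottom, so irg-5 would have the lowest ratio of the named genes. The related gene irg-4 (F08G5.6), also a CUB-like gene under p38 control, was at 5.52, 5.59, 4.86 and 3.67, and it ranked 8 from the top. For irg-4 the lowest value was in preparation 4, and the mean was 4.91 ± 0.89 (SD, n = 4), or 30.04-fold.

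The third high gene, irg-8 (ZK6.11), had log2 ratios of 4.14, 3.12, 4.48 and 4.62, with preparation 2 lowest. Its mean of 4.09 ± 0.68 (SD, n = 4), or 17.0-fold, ranked 15. The fourth, irg-7 (F40F4.6), which acts upstream of the p38 response in the intestine, was at 2.24, 2.53, 2.29 and 2.90. The arrays were close together for irg-7, with a mean of 2.49 ± 0.30 (SD, n = 4), or 5.61-fold, at rank 236. Among named genes with 4 values, 89.1% had a smaller SD than irg-4 and 85.1% a smaller SD than irg-5, against 21.03% for irg-7.

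The members below the reference include the genes best known as reporters of the ZIP-2 response. The lowest was irg-3 (F53E10.4), another gene induced by P. aeruginosa, with log2 ratios of -1.84, -2.26, -2.01 and -1.88. These values were nearly equal, with a mean of -1.998 ± 0.19 (SD, n = 4), and only 5.94% of named genes with 4 values had a smaller SD. The ZIP-2 target irg-2 (C49G7.5) was at -0.10, -1.50, -0.74 and -0.92, with a mean of -0.81 ± 0.58 (SD, n = 4). The widely used ZIP-2 reporter gene irg-1 (C07G3.2) was at -0.25, -0.93, -0.40 and -0.64, with a mean of -0.55 ± 0.30 (SD, n = 4). For irg-1 and irg-2, preparation 1 was nearest 0 and preparation 2 was lowest. The CUB-like gene irg-6 (C32H11.1) was at -1.16, -0.77, 0.33 and -0.52, so it was above 0 in preparation 3 alone, and its mean was -0.53 ± 0.63 (SD, n = 4). Thus 1 of the 3 CUB-like irg genes named here lay on the other side of the split from irg-4 and irg-5.

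No pals gene stood above 0 on every array. Of 23 measured, 13 were below 0 on every array with a value and 10 had mixed signs, and 21 of the 23 means were below 0. Of all 14901 named genes, 3721 were above 0 on every array, 3329 were below it and 7851 had mixed signs. Means were below 0 in 7025 of them and at -1 or lower in 1119. The means ran from -2.34 for pals-39 to 0.24 for pals-13, with a median of -0.49, against a median of 0.05 over all named genes. With a mean of -1 or lower there were 9, listed from the lowest: pals-39, pals-26, pals-27, pals-32, pals-28, pals-33, pals-38, pals-34 and pals-31. The next was pals-1 at -0.79, and the other 13 had means between -0.50 and 0.24.

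The lowest pals ratios belonged to pals-39 (C54D10.7), at -2.70, -2.94, -2.61 and -1.10 in preparations 1 to 4. Preparation 4 was apart from the other 3, and the mean was -2.34 ± 0.84 (SD, n = 4). Its neighbour pals-38 (C54D10.8) had no value in preparation 1 and was at -1.83, -0.73 and -1.36 in preparations 2 to 4. The values of pals-26 (B0284.1) were -1.34, -2.98, -2.23 and -1.88, with a mean of -2.11 ± 0.69 (SD, n = 4). Those of pals-27 (B0284.2) were -1.65, -3.67, -1.88 and -0.93, with a mean of -2.03 ± 1.16 (SD, n = 4). Those of pals-28 (B0284.4) were -0.997, -3.18, -1.04 and -1.33, with a mean of -1.64 ± 1.04 (SD, n = 4). All 3 of these genes were lowest in preparation 2, and without that preparation the means of pals-27 and pals-28 were -1.49 and -1.12.

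Of the pals genes that stand apart from other pals genes in the annotation, pals-32 (C31B8.4) had no value in preparation 1 and was at -2.04, -1.66 and -1.21 in the others. The values of pals-33 (W08A12.4) were -1.04, -2.12, -0.63 and -1.46, and those of pals-34 (F26D11.6) were -0.82, -2.63, -1.03 and -0.69. Again preparation 2 was the lowest for all 3. The tightest of the low genes was pals-31 (F48G7.2), with no value in preparation 2 and -1.23, -1.18 and -1.30 in preparations 1, 3 and 4. The last, pals-1 (F15D3.8), was at -0.68, -1.38, -0.87 and -0.24.

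The pals genes best known from the intracellular pathogen response were not among the 9 lowest. Its usual reporter gene, pals-5 (C17H1.6), was at -0.38, -1.18, 1.51 and -0.58. It was above 0 in preparation 3 alone, its SD of 1.16 around a mean of -0.16 was larger than that of 95.6% of named genes with 4 values, and without preparation 2 its mean was 0.18. The repressor gene pals-22 (C29F9.1), whose loss switches the response on, was at -0.48, -0.72, -0.01 and 0.29, with a mean of -0.23 ± 0.45 (SD, n = 4). The next genes in the annotation, pals-23 and pals-24, had means of -0.14 and -0.09. The 2 probes of pals-24 differed in sign, with means of 0.14 and -0.33.

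The lowest pals genes and those nearer 0 lay in different stretches of the annotation. Runs were formed from pals genes with at most 3 other protein-coding genes between neighbours, a grouping drawn up after the values were seen and given with no test. The longest run, pals-13 to pals-15 around the clone C17H1, holds 14 pals genes, of which 8 were measured, with means from -0.49 to 0.24 and a median of -0.23. The run of pals-22 to pals-25 had 3 measured, with means from -0.23 to -0.09, and the pair pals-29 and pals-30 had means of -0.50 and 0.17. The B0284 run (pals-26, pals-27 and pals-28) had means from -2.11 to -1.64, and the 2 measured genes of the C54D10 run (pals-38 and pals-39) had -1.31 and -2.34. The 5 genes outside any run ranged from -1.64 to -0.79. Whether probes of neighbouring pals genes bind each other's transcripts was not tested, since probe sequences were not used here.

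**Figure D2:**
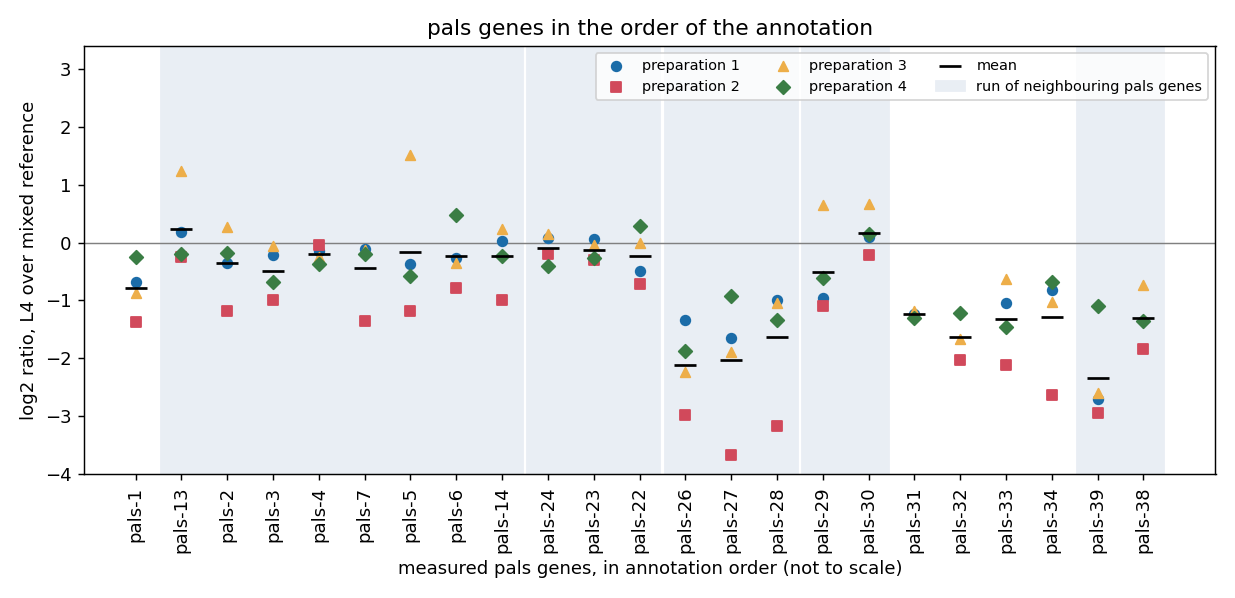
Log2 ratio of L4 over the mixed reference for the 23 measured pals genes in annotation order, with spacing not to scale. Shaded blocks are runs of neighbouring pals genes, coloured symbols the 4 preparations and black dashes the means. The first long run, pals-13 to pals-14, has means from -0.49 to 0.24, and the block pals-26 to pals-28 has means from -2.11 to -1.64.

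The pals genes shared a pattern across preparations. In 18 of the 20 pals genes with 4 values, preparation 2 gave the lowest value, against 29.7% of all 14385 named genes with 4 values. Preparation 3 gave the highest value in 9 of the 20, against 25.98% of all. The family median was -0.38, -1.18, -0.25 and -0.58 in preparations 1 to 4. The ratios in preparation 2 were more widely spread than those in preparations 1 and 4, with SDs over probes of 0.95, 1.19, 1.21 and 0.85 in preparations 1 to 4. With the arrays scaled to one spread, an alternative added once the values were known, preparation 2 was lowest in 12 of the 20 pals genes, against 26.3% of all, and the medians were -0.46, -1.02, -0.19 and -0.74. Preparation 2 also had the highest medians of the sperm and yolk markers given above, and the part of these differences in the pals values was not tested. Among the 8 irg genes, preparation 2 was lowest in 4 and highest in 2.

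**Figure D3:**
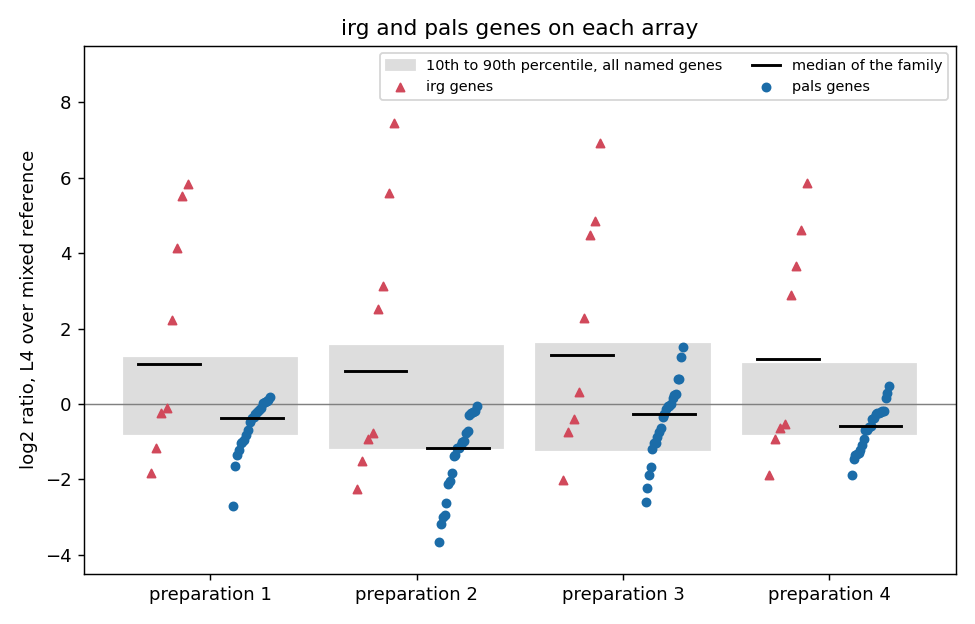
Log2 ratio of L4 over the mixed reference for each irg gene (triangles) and pals gene (circles) on each of the 4 arrays, with the family median as a black line. Grey boxes span the 10th to 90th percentile of all named genes on that array. On each array 4 irg genes lie over the box, and 8, 12, 4 and 8 pals genes lie under it in preparations 1 to 4.

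Set side by side, the irg family was wider and centred higher than the pals family. The median of the irg means was 0.98 and that of the pals means was -0.49, while the SD of the means over genes was 3.16 for irg and 0.77 for pals. The irg median on each array was 1.07, 0.88, 1.31 and 1.19 in preparations 1 to 4. The difference of the family medians, irg minus pals, was 1.45, 2.06, 1.56 and 1.77 on the 4 arrays, with a mean of 1.71 ± 0.27 (SD, n = 4). That difference rests on where the middle of 8 irg genes falls, since the irg median lies in the gap between 2.49 for irg-7 and -0.53 for irg-6 and describes no gene. The lower irg genes (-1.998 to -0.53) lie within the range of the pals means.

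In limma, fitted across 19911 probes and genes with Benjamini-Hochberg adjustment, 5 of 8 irg genes passed the threshold of 0.05, which is 62.5% of the family beside 21.7% of everything tested. Of these, 4 were higher (11.9% of everything tested was) and 1 was lower (9.77% was). Of the 23 pals genes, 9 were lower, or 39.1%, beside the same 9.77%, and 0 were higher, also at an unadjusted p under 0.05 and under robust shrinkage. These are the 9 genes with means of -1 or lower. Because the families were chosen with this comparison in view, nothing is read from the shares. Without preparation 3, 6 pals genes passed, and pals-27, pals-28 and pals-34 were lost (adjusted p = 0.0593, 0.0545 and 0.0901 in limma). The call of pals-34 was also lost without preparation 2, that of pals-38 without preparation 2 or 4, and that of pals-31 without preparation 1 or 4.

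The upstream regulators were mostly a little below the reference. Of 26 regulators on 4 lists, 22 were measured, and 0 were higher and 3 lower in limma (0 and 8 at an unadjusted p under 0.05), with means from -1.35 to 0.41 and a median of -0.48, close to the pals median of -0.49. The 3 lower genes are 13.6% of the list, beside 9.77% of everything tested. Of the 22, 14 were below 0 on every array and 1 was above it on every array. Of all 14901 named genes, 3329 were below 0 on every array and 3721 above it. At an unadjusted p under 0.05 in limma, 3204 of them were higher and 2546 lower. In the p38 cascade, 2 of 8 were lower: dkf-2, a protein kinase D gene, at -1.35 ± 0.28 (SE, n = 4, adjusted p = 0.0112 in limma), and the p38 gene pmk-2 at -1.30 ± 0.23 (SE, n = 4, adjusted p = 0.00597 in limma). The core genes had means of -0.67 for tir-1, the adaptor, 0.08 for nsy-1, the MAP3 kinase, -0.43 for sek-1, the MAP2 kinase, and -0.42 for pmk-1, the p38 kinase of intestinal defence. Means were -0.12 for the transcription factor gene atf-7 and -0.69 for the phosphatase gene vhp-1 (adjusted p = 0.059 in limma, over a range of 0.0454 to 0.176 across the alternatives). None of these 6 passed with all 4 arrays centred on their medians. With all 4 arrays, vhp-1 did pass under housekeeping centring and with the arrays scaled to one spread (adjusted p = 0.0495 and 0.0454 in limma).

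Regulators of the ZIP-2 response had means in the range of its targets irg-1 and irg-2 or nearer 0. The means of zip-2, the C/EBP gene cebp-1 and the Tribbles-like kinase gene nipi-3 were -0.24, -0.41 and -0.56, and 0 of 3 passed in limma (1, lower, at an unadjusted p under 0.05). For zip-2 the values were -0.30, -0.36, -0.57 and 0.25 in preparations 1 to 4. Among 7 other regulators of intestinal defence, 1 was lower, the nuclear receptor gene nhr-49 at -0.92 ± 0.24 (SE, n = 4, adjusted p = 0.0296 in limma), and that call was lost when preparation 1, 2 or 3 was left out (adjusted p = 0.118, 0.0657 and 0.0934 in limma). The list's median was -0.47. Means were -0.63 for daf-16, -0.62 for hlh-30, -0.47 for mdt-15 and -0.16 for skn-1, and none of these passed. The intestinal GATA factor gene elt-2 had a mean of 0.23 and the receptor gene fshr-1 one of 0.41, and neither passed. Most intestinal markers had means above 0: act-5, the actin gene of the intestinal brush border, was at 1.92 ± 0.20, the esterase gene ges-1 at 1.62 ± 0.23, and the proton pump gene vha-6 at 1.47 ± 0.29 (SE, n = 4 each). Of the 7 intestinal markers, 5 were above 0 on every array, and 4 were higher and 0 lower, while asp-1, elt-2 and elt-7 (means of 0.59, 0.23 and -0.01) did not pass. The median of the intestinal markers was 0.80, 1.46, 0.48 and 0.83 in preparations 1 to 4, and its part in the irg ratios was not tested. The call of the fourth, ifb-2, was lost without preparation 1, 2 or 4.

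Genes that accompany the pals genes in the intracellular pathogen response had ratios on both sides of 0. Of 11 listed, 7 were measured, with 1 higher (beside 11.9% of everything tested), 2 lower (beside 9.77%) and a median of 0.00. The chitinase-like gene chil-28 was at -2.46, -4.27, -2.31 and -1.69 in preparations 1 to 4. Its mean was -2.68 ± 0.39 (SE, n = 4, adjusted p = 0.00288 in limma). The Skp1-related gene skr-5 was at -2.27, -2.45, -2.56 and -1.23, with a mean of -2.13 ± 0.27 (SE, n = 4, adjusted p = 0.00171 in limma). The F-box gene fbxa-182 was higher by 0.89 ± 0.21 (SE, n = 4, adjusted p = 0.0188 in limma), and lost its call when preparation 1, 2 or 4 was left out (adjusted p = 0.0818, 0.0573 and 0.0606 in limma). The cullin gene cul-6, whose product forms a ubiquitin ligase with Skp1-related and F-box proteins, had a mean of 0.18, skr-3 one of 0.20, fbxa-158 one of -0.30 and chil-27 one of 0.00. Regulators of this response had means of 0.07 for drh-1, the RIG-I-like helicase gene, -0.50 for the bZIP gene zip-1, -0.62 for the purine nucleoside phosphorylase gene pnp-1 and -0.48 for lin-35, the Rb homologue, and 0 of 4 passed.

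**Figure D4:**
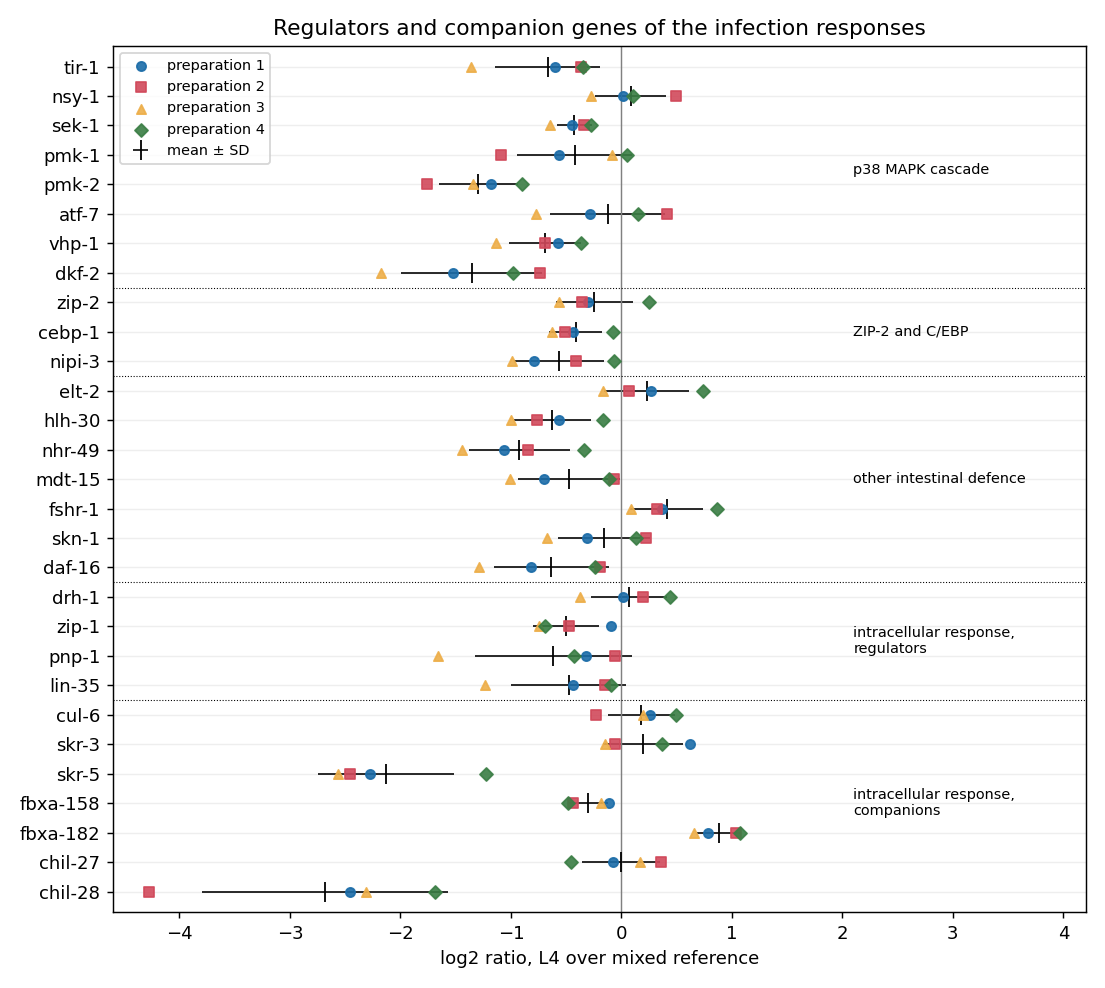
Log2 ratio of L4 over the mixed reference for 22 regulators and 7 companion genes of the infection responses, by list. Coloured symbols are the 4 preparations, and the black tick and bar are mean ± SD (n = 4). Apart from pmk-2, dkf-2, skr-5 and chil-28, all means lie between -0.92 and 0.89.

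Across preparations the regulators and the pals genes had their lowest values on different arrays. Preparation 3 was lowest in 20 of the 22 regulators, against 33.8% of all named genes, while it was lowest in 0 of the 20 pals genes. Preparation 3 was also lowest in 6 of the 8 housekeeping genes. With the arrays scaled to one spread, preparation 3 was lowest in 12 of the 22 regulators, 4 of the 8 housekeeping genes and 0 of the 20 pals genes, against 29.6% of all named genes.

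The genes around the high irg genes ranged from well below them to level with them, which is a description, since the families were selected on these ratios. The other 7 measured genes of the clone F35E12, where irg-5 lies, had a median of 0.87, with 4 higher and 1 lower. Of everything tested, 11.9% was higher and 9.77% lower, and these shares stand beside the counts for the clones below too. On either side of irg-5, F35E12.6 and F35E12.9 were at 1.42 ± 0.22 and 1.03 ± 0.22 (SE, n = 4, adjusted p = 0.00348 and 0.0144 in limma), and F35E12.9 did not pass without preparation 1 (adjusted p = 0.0566). Further along the clone, dct-17 was at 1.84, F35E12.10 at 0.87 (not passing without preparation 1 or 4) and the F-box gene fbxa-181 at -1.42. For irg-4, the 5 other measured genes of F08G5 had a median of 0.82, the collagen gene col-130 being highest at 1.97. The adjacent C-type lectin gene clec-185 was at 0.21.

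Both irg-8 and irg-7 had a measured neighbour with a mean near their own. Next to irg-8 lies dod-19, a gene downstream of DAF-16, with log2 ratios of 3.48, 4.02, 3.48 and 3.71, and a mean of 3.67 ± 0.21 (SE, n = 4, adjusted p = 0.000176 in limma), and in preparation 2 it was above irg-8. The other neighbour of irg-8, Y39D8A.1, was also higher with all 4 arrays, at 1.20 ± 0.22 (SE, n = 4, adjusted p = 0.0069 in limma). The 9 other measured genes of ZK6 had a median of 0.66 and a lowest mean of 0.25, and 3 were higher, among them the lipase gene lipl-5 at 2.11 and ZK6.8 at 1.69. For irg-7, the adjacent gene hrg-11.2 was at 2.16, 3.71, 1.33 and 2.68, with a mean of 2.47 ± 0.36 (SE, n = 4, adjusted p = 0.00295 in limma). It was above irg-7 in preparation 2 and below it in the other 3. In contrast, the 5 other measured genes of F40F4 had a median of -0.14. The other neighbour of irg-7, F40F4.7, was not measured.

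The genes around the low irg genes had ratios on both sides of 0. Beside irg-6, K08D8.5 was at 1.14 ± 0.22 (SE, n = 4, adjusted p = 0.00827 in limma) and the chemoreceptor gene srz-15 at 0.59. Of the 10 other measured genes of its clone C32H11, 3 were higher, the DAF-16-related genes dod-21 and dod-24 at 2.12 and 1.93 and cld-1 at 1.68. On the same clone 1 was lower, C32H11.3 at -2.39. The gene next to irg-2, C49G7.10, had values of -0.43, -1.47, -0.91 and -1.18, in the same order over the preparations as irg-2, and its mean was -0.997 ± 0.24 (SE, n = 4, adjusted p = 0.021 in limma). Its call was lost when preparation 2, 3 or 4 was left out (adjusted p = 0.0706, 0.0647 and 0.0685 in limma). The same clone C49G7 holds the cytochrome P450 gene cyp-35A4 at 2.39. The neighbours of irg-3 were at -0.97 for C29G2.6, which passed except without preparation 1 (adjusted p = 0.0544 in limma), and 0.12 for F53E10.5, and those of irg-1 at 0.08 for str-227 and -0.23 for T24A6.7.

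**Figure D5:**
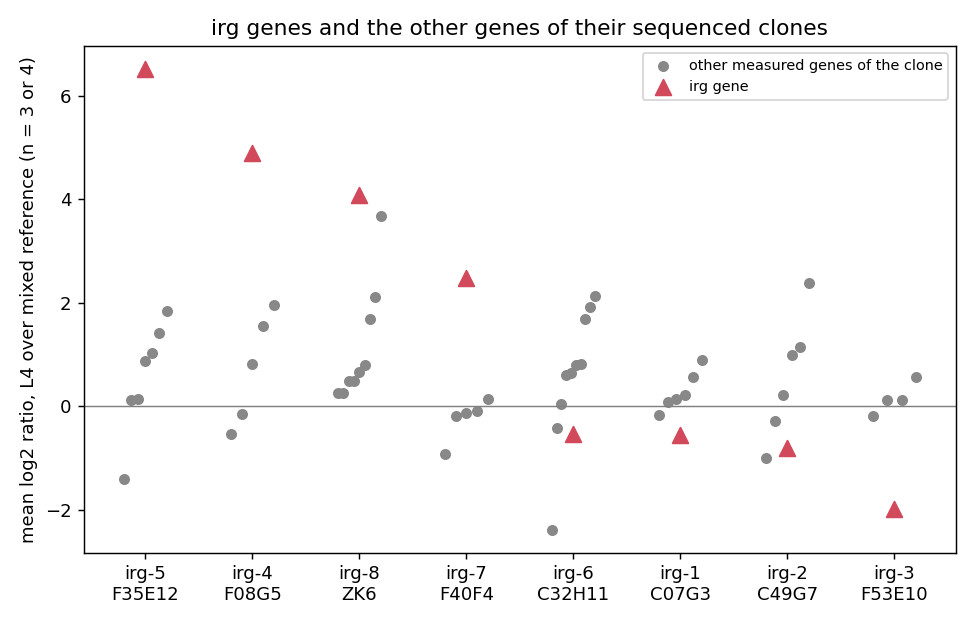
Mean log2 ratio of L4 over the mixed reference for each irg gene (red triangles) and the other measured genes of its sequenced clone (grey points), with irg genes sorted by mean. The triangles of irg-5, irg-4, irg-8 and irg-7 lie above all grey points of their clones, the nearest being dod-19 at 3.67 under irg-8 at 4.09, and that of irg-3 lies below all 4 grey points of F53E10.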

How the data were processed

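The authors deposited 1 value per probe and array and named no unit. These deposited numbers were taken as log2 ratios, since powers of 2 of the values below 0 were multiples of 0.001 in 100% of cases, within 0.02 steps, and powers of e in 5.43% to 5.94%. Column medians as deposited were -0.047, 0.007, -0.1 and -0.042 for preparations 1 to 4, and whether the authors centred, scaled or background-corrected the arrays is not stated. Scale was settled by the grid, but direction was not.

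Here each array was centred on its median. Probes of 1 gene were averaged (15 symbols with 2 gene identifiers were kept apart), and values on at least 3 of 4 arrays were required, which left 19911 probes and genes. Of 16450 probes with 1 gene, 247 with several and 4935 with none, 16368 of the first matched the WBcel235 table. The mean ratio was tested against 0, two-sided, in limma 3.58.1 (R 4.3.3) with Benjamini-Hochberg adjustment over all of them at 0.05. The code was checked on simulated data. The reference counts as 1 sample, and its own spread is left out. SD is the plain SD over arrays and SE is limma's moderated one. Figures used Python 3.11.15 and matplotlib 3.10.9.

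Members and lists were chosen with earlier results of these data known. All irg genes and all measured regulators were named, as were pals genes that passed or were extreme. So were up to 4 passing members of each other list, and genes beside irg genes in annotation order. Other pals genes and clone mates were named after their values were seen. Alternatives were no centring, housekeeping centring, other minimum numbers of arrays, separate probes, robust shrinkage, arrays scaled to one spread and leaving out each preparation. A planned comparison with sequence relatives was not run, because no protein table was used here.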

Additional observations from a re-analysis of the deposited data

Results flagged for a closer look

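Of 104 results with 4 values, 5 had 1 array far from the rest, by the gap to the nearest array divided by the whole range. Chance gives about 1 in 20 such results. For pals-7 the ratio was 0.932, with -1.35 in preparation 2 against -0.11, -0.13 and -0.19 in preparations 1, 3 and 4. For pals-28 it was 0.845, with -3.18 in preparation 2 against -0.997, -1.04 and -1.33. The early embryonic gene med-1 had a ratio of 0.885, with -2.19 in preparation 2 against -0.11, -0.11 and -0.35. The gene next to irg-5, F35E12.6, had a ratio of 0.854, with 1.00 in preparation 2 against 1.53, 1.62 and 1.54. For ZK6.8 the ratio was 0.849, with 1.53 in preparation 4 against 1.76, 1.75 and 1.73.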

How the results depend on the processing

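The 4 higher irg genes and irg-3 passed under every alternative run. With values as deposited, irg-2 passed too, making 2 irg genes lower. The median of the irg means ran from 0.91 to 1.13 over the preparations left out, and that of the pals means from -0.71 to -0.31. The difference of these medians of means, 1.47 with all 4 arrays, ran from 1.33 to 1.69. The 1.71 given earlier is another measure, the mean of the differences on each array. Leaving out 1 preparation gave 6 to 8 lower pals genes, and the other alternatives gave 7 to 10. Over all features the count was 2374 without preparation 3 and up to 3647 without another, with 3532 to 4637 under the other alternatives. Of 337 results of irg and pals genes under an alternative, 317 kept direction and side of the threshold, 10 no longer passed, 6 newly passed and 4, all of genes that did not pass, changed sign. The calls lost were those of pals-34, pals-38, pals-31, pals-27 and pals-28, and those gained were those of pals-1 and irg-2. The cause was not tested. No paired analysis was possible because there is 1 group of samples. Signal over background was not available, so dim spots could not be set apart.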
